A study of Mus musculus with 6 samples.

Results

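Rab GTPases are small proteins that mark the membranes of the secretory and endocytic pathways and direct the carriers that move between them. The 46 Rab genes described here are the rows of an 11417-gene expression table whose symbol is Rab followed by a number, with or without a letter or a further digit. Family members outside the table, Rab17 among them, were not analysed here. Poly(A) RNA came from BC44, HC11 and C57MG, all labelled mouse mammary epithelial cell lines, with 2 libraries per line and 6 in all. All cells were untreated and grown on plastic, were taken 2 days after plating, and carried no named transgene or edit in the labels. BC44 grew in RPMI1640 with 10% serum and 5 µg/ml insulin, HC11 in the same with 10 ng/ml epidermal growth factor (EGF) added, and C57MG in DMEM whose supplements were 10% serum and 10 µg/ml insulin. A difference between lines and a difference between their media cannot be told apart. The title of the series concerns the control of Wnt4 in the mammary gland by the transcription factors GRHL and PGR, and the libraries profile the lines without perturbation.

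A Rab protein is a switch. Guanine nucleotide exchange factors load it with GTP on its membrane, the GTP-bound form recruits effectors such as tethers, sorting adaptors and motor proteins, and GTPase-activating proteins return it to the GDP-bound form. Prenyl groups added by Rab geranylgeranyl transferase hold it on the membrane, and GDP dissociation inhibitors carry the GDP-bound form back through the cytosol. Some family members serve steps that all cells carry out, such as transport from endoplasmic reticulum to Golgi, while others are known for polarised epithelia or for secretory cells, where they guide traffic to the apical surface or the release of granules.

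RPKM counts the reads of a gene relative to its length and to the size of the library, so levels of different genes can be set side by side as levels per length. Fold changes are differences of log2(RPKM + 1) from limma, a linear model fitted to 10759 genes, with standard error (SE) and a Benjamini-Hochberg adjusted p-value over all those genes, called at 0.05. Estimated depth was 14260000 to 18560000 reads per library, at which 3 reads of a 2 kb gene are worth 0.0808 to 0.105 RPKM. The labelled cell type was checked against marker genes. Of 10 epithelial markers, 9 were in the table, and they summed to 4852 to 5063 RPKM in BC44, 2199 to 3074 in HC11 and 65.5 to 137.1 in C57MG. In the C57MG libraries Cdh1, which encodes E-cadherin, stood at 1.09 and 0 RPKM and Epcam at 0.949 and 0 RPKM. The basal keratin Krt14 was still present there at 118 and 64.8 RPKM and made up most of the C57MG sum, and Krt5 stood at 16.0 and 0.148 RPKM. Krt14 and Krt5 also dominated the BC44 sum, with means of 2726 and 1920 RPKM. The luminal keratins Krt8 and Krt18 went the other way, with means of 0.051 and 0 RPKM in BC44 against 146.2 and 91.3 RPKM in HC11. Epcam and Cldn4 were also lower in BC44 than in HC11, with means of 105.1 against 202.4 RPKM and 4.51 against 25.7 RPKM. All 8 mesenchymal markers were in the table, and they summed to 6511 to 6798 RPKM in C57MG against 63.8 to 144.4 in BC44 and 64.8 to 71.4 in HC11. The part of this difference in the Rab results was not tested. In bulk libraries fewer cells of a type and less RNA per cell cannot be told apart. The labels do not say that the libraries of a line came from separate cultures, so the p-values measure only the spread between these libraries.

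By a 2-fold limit most Rab genes were present in all 3 lines at similar levels, and a few were nearly silent in at least 1 line. The genes were sorted by level into 4 classes. A broad gene had at least 1 RPKM in all 6 libraries and less than a 2-fold ratio between its highest and lowest line mean. A line-restricted gene had both libraries of at least 1 line under 1 RPKM and both of another at 1 RPKM or more. Graded genes were the others that reached 1 RPKM, and low genes never reached it. By this rule 26 Rab genes were broad, 13 graded, 6 line-restricted (Rab25, Rab15, Rab38, Rab27a, Rab27b and Rab6b) and 1 low (Rab39b). Among the 45 tested Rab genes the broad share was 57.8%, against 54.2% of all tested genes, and the line-restricted share was 13.3%, against 17.2%. At the edge of the broad class, Rab31 lay inside with a ratio of 1.96 and Rab8b lay outside with 2.00. The size of the class depends on this limit, with 19 broad genes at a ratio under 1.5 and 35 at a ratio under 3.

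**Figure D1:**
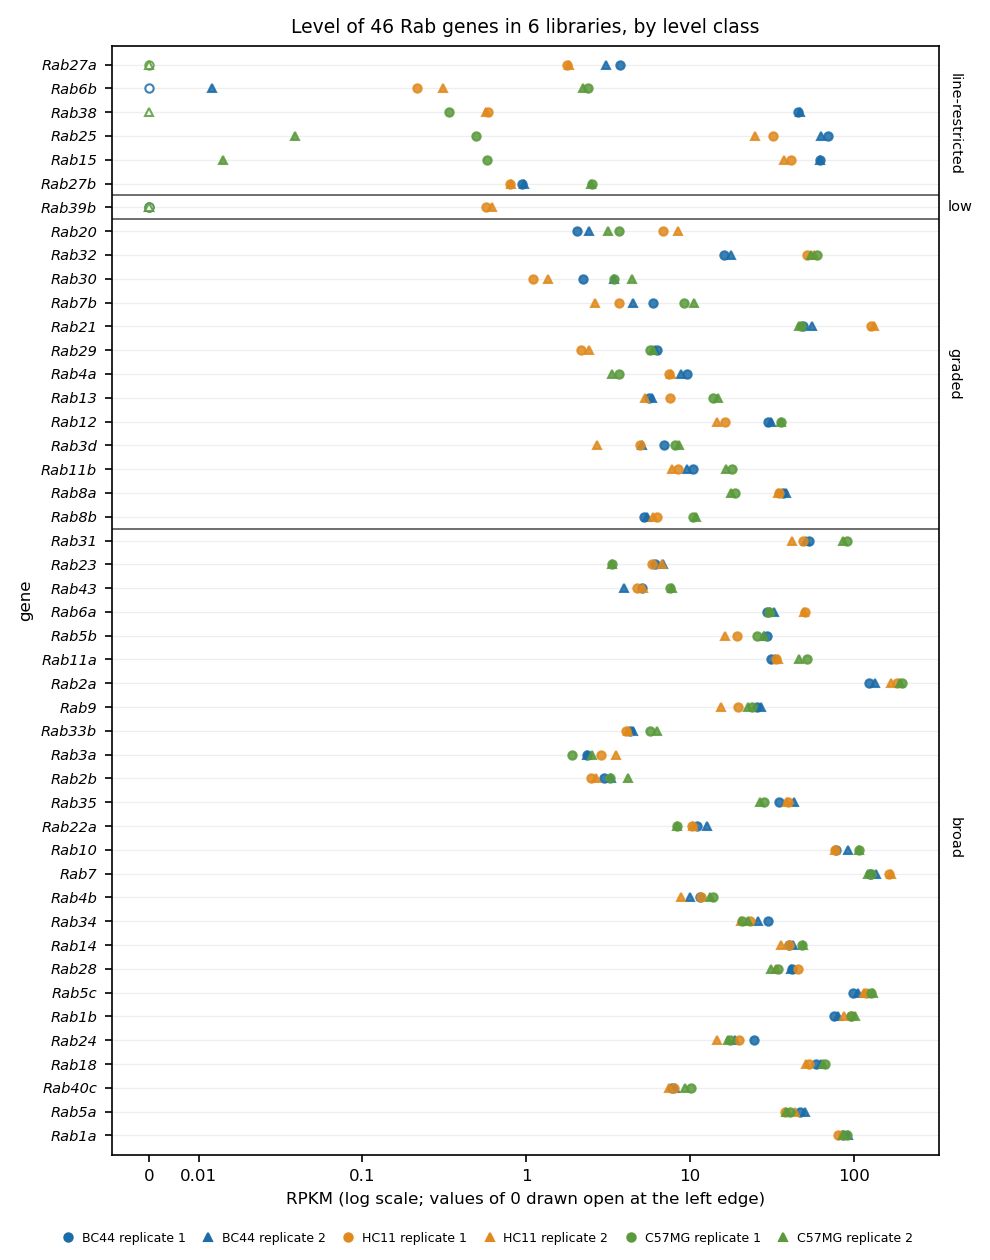
RPKM of each Rab gene in each of the 6 libraries on a logarithmic axis, with genes grouped by class from line-restricted (top) to broad (bottom), colours for the lines and symbols for the replicates. The points of a broad gene lie close together, while those of Rab25, Rab15, Rab38, Rab27a and Rab6b are spread widely, and values of 0 are open symbols at the left edge.

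The family as a whole took up a similar small part of each transcriptome. The RPKM of all 46 genes summed to 1457 and 1524 in the BC44 libraries, to 1560 and 1496 in those of HC11 and to 1526 and 1499 in those of C57MG, and these sums overlap between the lines. As a share of all RPKM in a library the genes took 0.472% and 0.470% in the C57MG libraries, 0.445% and 0.459% in those of BC44 and 0.456% and 0.432% in those of HC11. By share C57MG lay above BC44 and HC11 without overlap, by a small margin that was not tested. The median tested Rab gene had a level of 22.4 RPKM, above the 10.9 RPKM of all tested genes, and its highest line mean was 1.63 times its lowest, against 1.82 for all tested genes.

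Between BC44 and HC11, 12 of the 45 tested Rab genes were higher in BC44 and 7 lower, a share of 42.2% against 47.7% of all tested genes. Against C57MG, 11 Rab genes were higher in BC44 and 19 lower, together 66.7% against 71.7% of all tested genes. In HC11 against C57MG 14 were higher and 22 lower, together 80.0% against 70.5%. Changes of at least 2-fold were called for 6, 9 and 11 Rab genes in the same order, 13.3%, 20.0% and 24.4% of those tested, beside 12.5%, 29.8% and 27.0% of all genes. In the contrasts with C57MG more Rab genes were called lower than higher in BC44 and HC11, while over all genes 37.5% were called higher and 34.1% lower in BC44, and 37.4% higher and 33.2% lower in HC11. Between BC44 and HC11 the shares of all genes were 24.7% and 23.0%. The 12 genes higher in BC44 than in HC11 became 7 without either BC44 library, and the 19 lower in BC44 than in C57MG became 12 without C57MG replicate 1 and 11 without C57MG replicate 2. The ranges of 2 lines stood apart for 36 of the 45 tested Rab genes in BC44 and HC11, 40 in BC44 and C57MG and 39 in HC11 and C57MG, beside 73.0%, 87.9% and 86.2% of all tested genes. The 3 contrasts share libraries, so their calls are not independent of each other.

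The line-restricted genes are described first. Their class was set from these same levels, so a difference between lines is part of its definition. The p-values of these genes are no separate support for it. Rab38 entered the test of genes with at least 1 RPKM in at least 2 libraries through BC44 alone. Rab6b and Rab27b entered it through C57MG alone. Rab25 belongs to the Rab11 subfamily, is found mainly in epithelia, and directs recycling of cargo to the apical surface and of integrins. Rab15 acts in endocytic recycling and in the priming of secretory granules. Rab27a docks secretory granules, melanosomes and other lysosome-related organelles at the plasma membrane. Rab38 was also near 0 in C57MG and had no promoter entry. For Rab25, Rab15 and Rab27a, which were near or at 0 in C57MG, the 250 bases before an annotated start are shown as RefSeq gives them for GRCm38.p6, each read 5′ to 3′ on the gene's own strand. Capitals mark matches to the GRHL motif AACCNGTT, whose other strand reads AACNGGTT, and to the E-box CACCTG, whose other strand reads CAGGTG and which ZEB and SNAI factors bind. Rab15 has 4 RefSeq starts and Rab27a has 2, and the start with a match is shown; which starts these cells used was not measured.
Rab25, chr3:88548280-88548529, minus strand: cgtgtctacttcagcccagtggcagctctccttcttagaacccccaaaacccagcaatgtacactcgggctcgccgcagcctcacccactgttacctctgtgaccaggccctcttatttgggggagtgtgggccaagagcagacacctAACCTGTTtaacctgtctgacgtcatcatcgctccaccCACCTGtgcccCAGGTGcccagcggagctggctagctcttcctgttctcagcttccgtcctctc
Rab15, chr12:76818375-76818624, minus strand: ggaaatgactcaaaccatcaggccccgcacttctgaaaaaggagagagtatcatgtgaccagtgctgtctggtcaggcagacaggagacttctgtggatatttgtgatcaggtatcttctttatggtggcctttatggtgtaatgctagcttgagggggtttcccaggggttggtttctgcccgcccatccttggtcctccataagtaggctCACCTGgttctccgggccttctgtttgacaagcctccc
Rab27a, chr9:73044560-73044809, plus strand: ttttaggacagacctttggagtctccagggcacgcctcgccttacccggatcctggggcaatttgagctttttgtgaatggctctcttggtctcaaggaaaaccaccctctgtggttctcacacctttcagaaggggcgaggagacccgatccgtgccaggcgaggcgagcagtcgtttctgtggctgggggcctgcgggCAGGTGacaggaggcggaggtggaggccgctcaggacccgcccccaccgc

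The GRHL match of Rab25 (AACCTGTT) lies 102 to 95 bases before its start, and its E-boxes lie 64 to 59 and 53 to 48 bases before it. The E-box of Rab15 lies 38 to 33 bases before the start shown and that of Rab27a 50 to 45 bases before. Windows of 300 bases, with the 50 bases after the start included, were searched for all RefSeq promoters. Of the 39 Rab genes of the table with a promoter entry, Rab25 alone held the GRHL motif (2.56%), beside 634 of 27025 genes in all (2.35%). An E-box was in 8 of the 51 promoters of Rab genes (15.7%), beside 20.2% of all 32851 promoters. At least 2 E-boxes were in 2 of the 51, those of Rab25 and Rab23 (3.92%), beside 2.88% of all promoters. The other promoters of Rab genes with an E-box, those of Rab22a, Rab23, Rab3a, Rab5c and Rab9, all belong to broad genes. The E-box was searched after the values were seen, and a match in a window is a description of its letters.

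Rab25 was the Rab gene with the largest difference of log2(RPKM + 1) between BC44 and C57MG. Its level was 69.8 and 63.1 RPKM in BC44, 32.2 and 25.0 RPKM in HC11, and 0.496 and 0.039 RPKM in C57MG. The 3 lines did not overlap, with BC44 highest and C57MG near 0. On the log2 scale the excess was 5.76 (SE 0.19, limma adjusted p = 3.01e-07) for BC44 over C57MG and 4.56 (SE 0.19, limma adjusted p = 8.22e-07) for HC11 over C57MG. Between BC44 and HC11 it was 1.20 (SE 0.19, limma adjusted p = 0.00178), a call that a pseudocount of 0.1 ended (adjusted p = 0.140, the highest of 14 alternatives that started at 0.000101).

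Rab15 followed the same order of lines. It stood at 62.4 and 62.3 RPKM in BC44, 41.4 and 37.7 RPKM in HC11, and 0.576 and 0.014 RPKM in C57MG. BC44 and HC11 did not overlap, and both lay far above C57MG. The log2 fold change over C57MG was 5.65 (SE 0.19, limma adjusted p = 3.13e-07) in BC44 and 5.00 (SE 0.19, limma adjusted p = 5.65e-07) in HC11. Between BC44 and HC11 it was 0.65 (SE 0.19, limma adjusted p = 0.0259), and this call was lost with a pseudocount of 0.1 (adjusted p = 0.490) and without BC44 replicate 1 (0.110), BC44 replicate 2 (0.108) or HC11 replicate 2 (0.0913), over a range of 0.00172 to 0.490 in 14 alternatives.

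Rab38, which works with Rab32 in the delivery of cargo to melanosomes and other lysosome-related organelles, was high in BC44 only. Its level was 45.9 and 47.1 RPKM in BC44, 0.586 and 0.569 RPKM in HC11, and 0.339 and 0 RPKM in C57MG. The BC44 libraries stood apart from the other 4, all of which were under 1 RPKM. On the log2 scale the excess was 4.91 (SE 0.15, limma adjusted p = 1.05e-06) for BC44 over HC11 and 5.36 (SE 0.15, limma adjusted p = 2.71e-07) for BC44 over C57MG. HC11 exceeded C57MG by 0.45 (SE 0.15, limma adjusted p = 0.0267), but quantile normalization (adjusted p = 0.204) and the absence of HC11 replicate 1 (0.0649), HC11 replicate 2 (0.0587) or C57MG replicate 2 (0.202) ended that call, over a range of 0.00630 to 0.204 in 12 alternatives.

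The residual values of these genes in C57MG came mostly from replicate 1. There Rab25 stood at 0.747% of its BC44 mean (about 15 reads), Rab15 at 0.924% (about 48 reads) and Rab38 at 0.729% (about 10 reads), and in C57MG replicate 2 they stood at 0.0587%, 0.0225% and 0. The keratin gene Krt5 stood at 0.836% and 0.00771% of its BC44 mean in the same libraries, Epcam at 0.903% and 0, and Grhl2 at 0.817% and 0.1498%. Cdh1, Cldn4 and Esrp1 also fell to 0 RPKM in C57MG replicate 2. Other epithelial markers went differently. Krt14 stood at 118 and 64.8 RPKM in C57MG, against a BC44 mean of 2726 RPKM. Krt8 (0.307 and 0.503 RPKM) and Krt18 (0 and 0.046 RPKM) were higher in C57MG replicate 2. The part of these marker levels in the low Rab values of C57MG replicate 1 was not tested. Rab38 in HC11 was at 1.26% and 1.22% of its BC44 mean, about 17 and 13 reads.

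Rab27a and Rab27b, close relatives that dock secretory vesicles, had their highest levels in different lines. Rab27a stood at 3.76 and 3.09 RPKM in BC44, 1.78 and 1.82 RPKM in HC11, and 0 in both C57MG libraries. BC44 was highest and did not overlap HC11, and no C57MG library had a read. Against a floor of 3 reads per C57MG library, the mean level of Rab27a in BC44 was at least 73.4-fold higher. The same bound for HC11 was at least 38.5-fold higher. On the log2 scale the BC44 excess over HC11 was 0.66 (SE 0.11, limma adjusted p = 0.00202), and both lines differed from C57MG with limma adjusted p-values of 1.67e-06 (BC44) and 1.29e-05 (HC11). Rab27b was highest in C57MG, with 0.948 and 0.966 RPKM in BC44, 0.797 and 0.804 RPKM in HC11, and 2.54 and 2.50 RPKM in C57MG. C57MG lay above the other lines without overlap, but Rab27b was present in all 3 lines, on about 122 reads or more per library. Its place among the line-restricted genes rests on the limit of 1 RPKM. With a limit of 0.5 RPKM Rab15 also left the class, for its 0.576 RPKM in C57MG replicate 1, and Rab39b entered. At that limit 5 genes were line-restricted in place of 6, namely Rab25, Rab38, Rab27a, Rab6b and Rab39b. The log2 fold change of Rab27b was -0.85 (SE 0.09, limma adjusted p = 9.46e-05) for BC44 against C57MG and -0.97 (SE 0.09, limma adjusted p = 5.25e-05) for HC11 against C57MG. Between BC44 and HC11 Rab27b was not called (limma adjusted p = 0.315).

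Rab6b, a form of the Golgi protein Rab6 best known from neurons, was a C57MG gene among these lines. It stood at 0 and 0.012 RPKM in BC44, 0.216 and 0.310 RPKM in HC11, and 2.40 and 2.23 RPKM in C57MG. The 3 lines did not overlap, with no more than about 1 read in a BC44 library and about 20 and 22 reads in HC11. It differed by -1.72 (log2, SE 0.09, limma adjusted p = 2.43e-06) between BC44 and C57MG and by -1.39 (SE 0.09, limma adjusted p = 8.17e-06) for HC11 against C57MG. The BC44 and HC11 difference of -0.33 (SE 0.09, limma adjusted p = 0.0228) was lost with quantile normalization (adjusted p = 0.0682) and without BC44 replicate 1 (0.0919), BC44 replicate 2 (0.0784) or HC11 replicate 2 (0.105), over a range of 0.00138 to 0.105 in 11 alternatives. The mesenchymal genes Vim and Col1a1 stood at 0.609% and 0.610% of their C57MG mean in BC44 replicate 1 and at 1.98% and 2.03% in replicate 2, against 0 and 0.519% for Rab6b. In HC11 Rab6b stood at 9.33% and 13.4% of its C57MG mean, above Vim at 0.926% and 1.07% and Col1a1 at 0.103% and 0.121%. Zeb2, alone among the mesenchymal markers, kept a larger part of its C57MG level in HC11 than Rab6b did. It stood at 0.942 and 1.452 RPKM in HC11, against a C57MG mean of 3.96 RPKM.

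Rab39b, known from neurons and from autophagy, was detected in HC11 only. It stood at 0.570 and 0.616 RPKM there, about 36 and 30 reads, and at 0 in the BC44 and C57MG libraries. With no library at 1 RPKM it was not tested. Against a floor of 3 reads per library its HC11 mean was at least 10.7-fold higher than in BC44 and at least 11.1-fold higher than in C57MG.

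With a pseudocount of 0.1 the called log2 differences of low genes were larger than at a pseudocount of 1. For BC44 against C57MG they reached 5.13 for Rab27a and -4.51 for Rab6b, and for HC11 against C57MG 4.25 for Rab27a and -2.75 for Rab6b. Those of Rab27b became -1.31 and -1.54, and that of Rab38 for HC11 over C57MG 1.69. The size of these differences moved with the pseudocount and their direction did not.

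The 26 broad genes ranged over every role considered here, from transport out of the endoplasmic reticulum to the cilium. Their levels ran from 2.59 RPKM (Rab3a) to 166.8 RPKM (Rab2a) with a median of 36.3 RPKM, against 7.38 RPKM for graded and 8.75 RPKM for line-restricted genes. The line with the highest mean was C57MG for 13 broad genes, BC44 for 9 and HC11 for 4. Of the 26, 7 were called between BC44 and HC11, 15 between BC44 and C57MG, and 18 between HC11 and C57MG, and none of these by 2-fold or more. Over all tested genes the called shares were 47.7%, 71.7% and 70.5%. The largest absolute log2 differences among broad genes were 0.68, 0.78 and 0.96. Since the classes were made from the same levels, the small size of these differences is part of the definition.

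The 5 Rab genes with the highest mean levels were all broad. Rab2a, needed between endoplasmic reticulum and Golgi, stood at 124.6 and 135.0 RPKM in BC44, 182.9 and 168.5 RPKM in HC11, and 196.6 and 193.1 RPKM in C57MG. BC44 was the low line without overlap, with a log2 difference of -0.43 against HC11 (SE 0.08, limma adjusted p = 0.00335) and -0.58 against C57MG (SE 0.08, limma adjusted p = 0.000341). Rab7, which governs the late endosome and its fusion with lysosomes, stood at 124.9 and 137.4 RPKM in BC44, 164.0 and 168.2 RPKM in HC11, and 127.4 and 122.7 RPKM in C57MG. HC11 was the high line for Rab7, with log2 differences of 0.41 over C57MG (SE 0.08, limma adjusted p = 0.00215) and -0.34 for BC44 against HC11 (SE 0.08, limma adjusted p = 0.00900). The latter was lost without BC44 replicate 1 (adjusted p = 0.0589).

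Rab5c, an early endosome Rab, stood at 98.5 and 106.0 RPKM in BC44, 119.3 and 114.9 RPKM in HC11, and 127.9 and 131.3 RPKM in C57MG. The lines did not overlap, but BC44 against C57MG alone was called, at -0.34 (SE 0.07, limma adjusted p = 0.00402). Rab10, which carries transporters and basolateral cargo to the surface, stood at 78.5 and 92.2 RPKM in BC44, 76.6 RPKM in both HC11 libraries, and 107.6 RPKM in both C57MG libraries. C57MG was highest, by 0.48 over HC11 on the log2 scale (limma adjusted p = 0.00191) and by 0.34 over BC44 (limma adjusted p = 0.0109), and the second of these was lost without BC44 replicate 1 (adjusted p = 0.0586), C57MG replicate 1 (0.0538) or C57MG replicate 2 (0.0545). Rab1b, which acts in transport from endoplasmic reticulum to Golgi, stood at 75.9 and 80.1 RPKM in BC44, 96.2 and 87.1 RPKM in HC11, and 96.0 and 101.3 RPKM in C57MG. BC44 was lowest for Rab1b, and its difference of -0.33 from C57MG was called (limma adjusted p = 0.00706) but not without C57MG replicate 2 (adjusted p = 0.0615).

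Rab1a varied least of all tested Rab genes, with a highest line mean 1.08 times the lowest. It stood at 86.2 and 92.4 RPKM in BC44, 80.5 and 85.2 RPKM in HC11, and 91.5 and 85.9 RPKM in C57MG, and it was called in none of the contrasts. BC44 and C57MG overlapped for Rab1a, and the higher HC11 library lay just below theirs. Rab5a, the early endosome fusion Rab, had a ratio of 1.23 and stood at 47.1 and 50.8 RPKM in BC44, 38.1 and 44.1 RPKM in HC11, and 40.7 and 38.8 RPKM in C57MG. Rab40c, whose protein joins a ubiquitin ligase, had a ratio of 1.26 and stood at 7.78 and 8.11 RPKM in BC44, 7.94 and 7.44 RPKM in HC11, and 10.1 and 9.27 RPKM in C57MG. C57MG lay above the other lines for Rab40c, while BC44 was the high line for Rab5a. The Rab40c differences from C57MG were -0.26 in BC44 (limma adjusted p = 0.0464) and -0.30 in HC11 (limma adjusted p = 0.0267). These calls were lost under 5 and 3 alternatives. Rab5a in BC44 was called against C57MG (0.29, limma adjusted p = 0.0235), a call lost under 3 alternatives. Against HC11 it was not called (limma adjusted p = 0.0623). Rab18, a Rab of lipid droplets and endoplasmic reticulum, stood at 59.2 and 63.2 RPKM in BC44, 53.0 and 50.8 RPKM in HC11, and 66.4 and 64.7 RPKM in C57MG. Rab24, an unusual Rab linked to autophagy, stood at 24.6 and 18.9 RPKM in BC44, 19.9 and 14.6 RPKM in HC11, and 17.5 and 17.0 RPKM in C57MG. HC11 was the low line for Rab18 (limma adjusted p = 0.00508 against C57MG), and Rab24 was called in no contrast, its libraries of BC44 and HC11 overlapping. Rab28 was likewise called in no contrast.

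**Figure D2:**
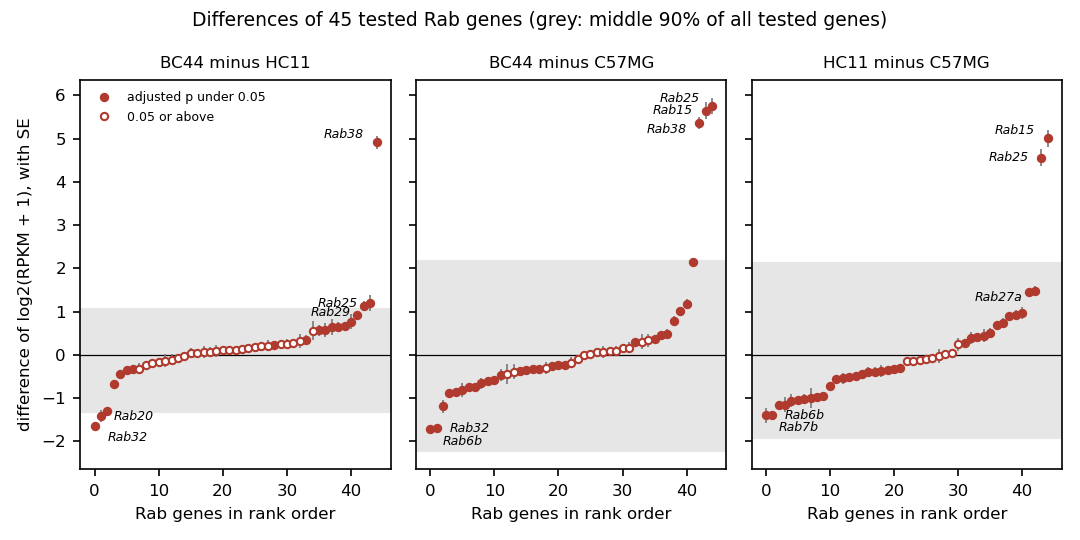
Difference of log2(RPKM + 1) for each of the 45 tested Rab genes, in rank order, in the 3 contrasts of lines, with SE bars from limma and filled points where the adjusted p-value was under 0.05. The grey band holds the middle 90% of all tested genes, and Rab25, Rab15 and Rab38 lie far above it in BC44 against C57MG.

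In the early secretory pathway, 11 Rab genes of the endoplasmic reticulum, Golgi and lipid droplets were tested. BC44 exceeded HC11 for 3 and fell below it for 3, it exceeded C57MG for 1 and fell below for 5, and HC11 exceeded C57MG for 1 and fell below for 6. These are 54.5%, 54.5% and 63.6% of the group, beside 47.7%, 71.7% and 70.5% of all genes. The 3 calls higher in BC44 than in HC11, Rab30, Rab34 and Rab18, were each lost under alternatives. Rab34 (0.34, limma adjusted p = 0.0310) was lost under 3, with up to 0.166, and Rab18 (0.23, limma adjusted p = 0.0359) under 8, with up to 0.155. Rab6a, which returns cargo through the Golgi, was the gene higher in HC11, at 50.4 and 49.7 RPKM against 29.4 and 32.4 in BC44 and 30.4 and 30.7 in C57MG. HC11 did not overlap the other lines, which lay together, and the log2 difference was 0.69 over C57MG (SE 0.08, limma adjusted p = 0.000147) and -0.68 for BC44 against HC11 (SE 0.08, limma adjusted p = 0.000398). Rab30, a Golgi Rab, stood at 2.23 and 3.41 RPKM in BC44, 1.09 and 1.352 RPKM in HC11, and 3.45 and 4.45 RPKM in C57MG. HC11 was lowest for Rab30, with a log2 difference of -1.15 against C57MG (SE 0.17, limma adjusted p = 0.000690). BC44 exceeded HC11 by 0.77 (SE 0.17, limma adjusted p = 0.00933), a call lost without BC44 replicate 2 (adjusted p = 0.0564). Rab34, which acts at the Golgi and in cilium formation, was the gene higher in BC44 than in C57MG, by 0.36 (limma adjusted p = 0.0166), a call lost without BC44 replicate 1 (adjusted p = 0.103) or C57MG replicate 1 (0.103). The remaining genes of this group, Rab2b, Rab33b and Rab43, had line means between 2.58 and 7.62 RPKM, all highest in C57MG.

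Among the 11 Rab genes of early and sorting endosomes, 1 was higher and 2 lower in BC44 than in HC11, 3 were higher and 4 lower in BC44 than in C57MG, and 4 were higher and 4 lower in HC11 than in C57MG. These are 27.3%, 63.6% and 72.7% of the group, beside 47.7%, 71.7% and 70.5% of all genes. Rab21, which binds integrins and guides their endocytosis, was an HC11 gene. It stood at 49.1 and 55.5 RPKM in BC44, 128.4 and 132.6 RPKM in HC11, and 47.4 and 46.1 RPKM in C57MG. HC11 was more than 2-fold above every other library, and the log2 difference was -1.31 for BC44 against HC11 (SE 0.08, limma adjusted p = 2.08e-05) and 1.46 for HC11 over C57MG (SE 0.08, limma adjusted p = 3.59e-06). Rab20, which acts on maturing phagosomes and endosomes, was also highest in HC11, at 6.81 and 8.45 RPKM, against 2.03 and 2.42 in BC44 and 3.71 and 3.14 in C57MG. The lines did not overlap. The log2 difference of Rab20 was -1.42 for BC44 against HC11 (SE 0.14, limma adjusted p = 0.000157) and 0.96 for HC11 over C57MG (SE 0.14, limma adjusted p = 0.000484). The log2 difference of BC44 from C57MG was -0.46 (limma adjusted p = 0.0182), a call lost without BC44 replicate 1 (adjusted p = 0.107) or C57MG replicate 1 (0.119).

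Rab4a, which sends receptors on the fast route back to the surface, was lowest in C57MG. It stood at 9.62 and 8.84 RPKM in BC44, 7.48 and 7.63 RPKM in HC11, and 3.69 and 3.32 RPKM in C57MG. The BC44 and HC11 libraries lay above C57MG without overlap, by 1.18 (SE 0.10, limma adjusted p = 2.78e-05) and 0.93 (SE 0.10, limma adjusted p = 0.000122) on the log2 scale. Rab31, which shares its subfamily with Rab22a, moved the other way, with 53.5 and 51.3 RPKM in BC44, 48.8 and 42.0 RPKM in HC11, and 91.4 and 86.6 RPKM in C57MG. C57MG was the high line for Rab31, with log2 differences from it of -0.75 in BC44 (SE 0.09, limma adjusted p = 0.000182) and -0.96 in HC11 (SE 0.09, limma adjusted p = 5.44e-05). Rab5b was lowest in HC11, at 19.5 and 16.5 RPKM against 29.6 and 28.4 in BC44 and 25.8 and 28.2 in C57MG, and differed from HC11 in both (limma adjusted p = 0.00154 and 0.00170). The endosomal genes Rab4b, Rab14 and Rab22a had highest line means less than 1.5 times their lowest.

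At the recycling endosome, Rab25 was joined by Rab11a, Rab11b and Rab35. BC44 exceeded HC11 for 1 of the 4, and against C57MG 2 were higher and 2 lower in each of BC44 and HC11, beside 47.7%, 71.7% and 70.5% of all genes called in the 3 contrasts. Rab11a, the general recycling Rab, stood at 31.2 and 32.9 RPKM in BC44, 33.4 and 34.4 RPKM in HC11, and 51.8 and 46.1 RPKM in C57MG. Rab11b stood at 10.5 and 9.56 RPKM in BC44, 8.47 and 7.80 RPKM in HC11, and 18.2 and 16.7 RPKM in C57MG. Both were highest in C57MG without overlap, the line where Rab25 was near 0. The log2 differences of BC44 and HC11 from C57MG were -0.59 and -0.52 for Rab11a (limma adjusted p = 0.000473 and 0.00106) and -0.74 and -1.01 for Rab11b (limma adjusted p = 0.000321 and 6.63e-05). Rab35, which acts in fast recycling and cytokinesis, was lowest in C57MG at 28.4 and 26.7 RPKM, against 35.1 and 43.0 in BC44 and 39.9 and 39.4 in HC11 (limma adjusted p = 0.00431 and 0.00344).

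The late endosome and lysosome group of 7 genes had 5 genes called higher and 2 lower in BC44 than in HC11. Against C57MG 1 was higher and 3 lower in BC44, and 2 were higher and 4 lower in HC11. Of the 7, 7, 4 and 6 were thus called in the 3 contrasts, beside 47.7%, 71.7% and 70.5% of all genes. Rab32, the partner of Rab38, was low in BC44. It stood at 16.2 and 17.8 RPKM in BC44, 52.1 and 57.5 RPKM in HC11, and 59.8 and 54.7 RPKM in C57MG. HC11 and C57MG overlapped and BC44 lay well below both, with log2 differences of -1.63 against HC11 (SE 0.09, limma adjusted p = 1.21e-05) and -1.70 against C57MG (SE 0.09, limma adjusted p = 2.54e-06). The HC11 and C57MG difference of -0.06 was not called (limma adjusted p = 0.566). Rab29, the third member of that subfamily and a regulator of the kinase LRRK2, was low in HC11 instead. It stood at 6.33 and 6.16 RPKM in BC44, 2.15 and 2.43 RPKM in HC11, and 5.70 and 5.91 RPKM in C57MG. HC11 lay below the others, and the log2 difference was 1.14 for BC44 over HC11 (SE 0.10, limma adjusted p = 0.000106) and -1.05 for HC11 against C57MG (SE 0.10, limma adjusted p = 5.98e-05).

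Rab12, which sends the transferrin receptor to lysosomes, and Rab7b, which links late endosomes to the Golgi, were also lowest in HC11. Rab12 stood at 30.02 and 31.1 RPKM in BC44, 16.4 and 14.7 RPKM in HC11, and 36.2 and 35.9 RPKM in C57MG. The log2 difference of Rab12 was 0.93 for BC44 over HC11 (SE 0.08, limma adjusted p = 0.000116) and -1.16 for HC11 against C57MG (SE 0.08, limma adjusted p = 1.31e-05). That of BC44 against C57MG, -0.23 (limma adjusted p = 0.0404), was lost without trend (adjusted p = 0.0549) and without BC44 replicate 1 (0.141), BC44 replicate 2 (0.0826), C57MG replicate 1 (0.163) or C57MG replicate 2 (0.145), over a range of 0.0153 to 0.163 in 14 alternatives. Rab7b stood at 5.92 and 4.52 RPKM in BC44, 3.67 and 2.64 RPKM in HC11, and 9.21 and 10.6 RPKM in C57MG. The lines kept the order C57MG, BC44, HC11 without overlap for both genes. The log2 difference of Rab7b was -1.40 for HC11 against C57MG (SE 0.17, limma adjusted p = 0.000180) and -0.81 for BC44 against C57MG (SE 0.17, limma adjusted p = 0.00296). Its excess of 0.58 in BC44 over HC11 (limma adjusted p = 0.0228) was lost without BC44 replicate 1 (adjusted p = 0.141) or HC11 replicate 2 (0.0935). Rab9, which returns receptors from late endosomes to the Golgi, was again lowest in HC11, with a mean of 17.6 RPKM against 26.4 RPKM in BC44 and 23.3 RPKM in C57MG. Its excess of 0.57 in BC44 over HC11 (limma adjusted p = 0.00690) was lost without BC44 replicate 2 (adjusted p = 0.0506). Its difference of -0.40 in HC11 against C57MG (limma adjusted p = 0.0203) was lost without HC11 replicate 2 (adjusted p = 0.0869) or C57MG replicate 1 (0.0988).

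Of the 9 Rab genes of exocytosis and regulated secretion, 2 were higher in BC44 than in HC11 and none lower, 3 were higher and 4 lower in BC44 than in C57MG, and 4 were higher and 5 lower in HC11 than in C57MG. Of the 9, 2, 7 and 9 were thus called, beside 47.7%, 71.7% and 70.5% of all genes. Rab8a, which carries membrane to the apical surface and the cilium, stood at 37.2 and 38.7 RPKM in BC44, 35.0 and 34.4 RPKM in HC11, and 18.8 and 17.8 RPKM in C57MG. Its near relative Rab8b stood at 5.21 and 5.47 RPKM in BC44, 6.32 and 5.93 RPKM in HC11, and 10.4 and 10.9 RPKM in C57MG. C57MG was thus the low line for Rab8a and the high line for Rab8b, without overlap in either. The log2 differences of BC44 and HC11 from C57MG were 1.02 and 0.89 for Rab8a (limma adjusted p = 1.34e-05 and 3.23e-05) and -0.88 and -0.71 for Rab8b (limma adjusted p = 0.000103 and 0.000366). Rab13, a Rab of tight junctions, stood at 5.59 and 5.83 RPKM in BC44, 7.60 and 5.28 RPKM in HC11, and 13.7 and 14.9 RPKM in C57MG. C57MG, the line near 0 for Cdh1 and Epcam, had the highest Rab13, with log2 differences from it of -1.19 in BC44 (SE 0.15, limma adjusted p = 0.000248) and -1.06 in HC11 (SE 0.15, limma adjusted p = 0.000510).

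The Rab3 genes, known from regulated exocytosis, were low. Rab3d stood at 6.94 and 5.07 RPKM in BC44, 4.97 and 2.71 RPKM in HC11, and 8.14 and 8.61 RPKM in C57MG. HC11 was the line with the widest spread and lay below C57MG, with a log2 difference of -0.99 (SE 0.23, limma adjusted p = 0.00558), or -0.65 without HC11 replicate 2. Rab3a stood between 1.91 and 3.54 RPKM in the 6 libraries, and its excess in HC11 over C57MG (0.39, limma adjusted p = 0.0319) was lost under 5 alternatives, among them without C57MG replicate 1 (adjusted p = 0.236) and without HC11 replicate 2 (0.138). Of the 3 remaining genes, Rab23, a ciliary Rab that restrains Hedgehog signalling, stood at 6.13 and 6.84 RPKM in BC44, 5.83 and 6.72 RPKM in HC11, and 3.36 and 3.33 RPKM in C57MG. BC44 and HC11 overlapped and lay above C57MG, by 0.78 (SE 0.11, limma adjusted p = 0.000436) and 0.74 (SE 0.11, limma adjusted p = 0.000627). Rab28 and Rab40c, the others of that group, are described with the broad genes.

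Close relatives were also described by their sum and by the share of each. The Rab11 genes summed to 108.5 ± 4.20 RPKM (SD, n = 2) in BC44, 70.6 ± 4.87 in HC11 and 66.6 ± 5.35 in C57MG. The share of Rab25 in that sum was 61.2% in BC44, 40.4% in HC11 and 0.383% in C57MG. That of Rab11a was 29.6%, 48.1% and 73.4% in the same order. The HC11 totals of 74.07 and 67.17 RPKM overlapped the C57MG totals of 70.41 and 62.85 RPKM, although Rab25 was near 0 in C57MG. With n = 2 this overlap is no measure of equal totals. The Rab32 genes summed to 69.8 ± 1.82, 57.6 ± 4.01 and 63.2 ± 3.69 RPKM (SD, n = 2) in BC44, HC11 and C57MG. Rab38 supplied 66.7%, 1.005% and 0.258% of it in the same order, and Rab32 supplied 24.3%, 95.02% and 90.5%. The makeup of this subfamily was therefore reversed between BC44 and the other lines. Its total was highest in BC44 without overlap, at 68.5 and 71.0 RPKM. The totals of HC11 were 54.8 and 60.5 RPKM and those of C57MG 65.8 and 60.6 RPKM.

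Shares shifted in other subfamilies too. Rab27a supplied 78.0% of the Rab27 sum in BC44, 69.2% in HC11 and none in C57MG, where Rab27b made up all of it. The Rab27 sum was 4.38 ± 0.460, 2.60 ± 0.0332 and 2.52 ± 0.0304 RPKM (SD, n = 2). Rab8a supplied 87.7%, 85.0% and 63.1% of the Rab8 sum, which was 43.3, 40.8 and 28.9 RPKM. Rab4a supplied 46.2%, 42.6% and 20.6% of the Rab4 sum, which was 19.98, 17.8 and 17.0 RPKM. The Rab6 sum, 30.9, 50.3 and 32.9 RPKM, varied as Rab6a did, and Rab6b reached 7.05% of it in C57MG and 0.0185% in BC44. By contrast the Rab1 sum, 167.4, 174.5 and 187.4 RPKM, was split almost evenly between Rab1a and Rab1b in every line, with Rab1a at 53.4%, 47.5% and 47.4%. The shares are descriptions of RNA levels per length, and no test was made of them.

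**Figure D3:**
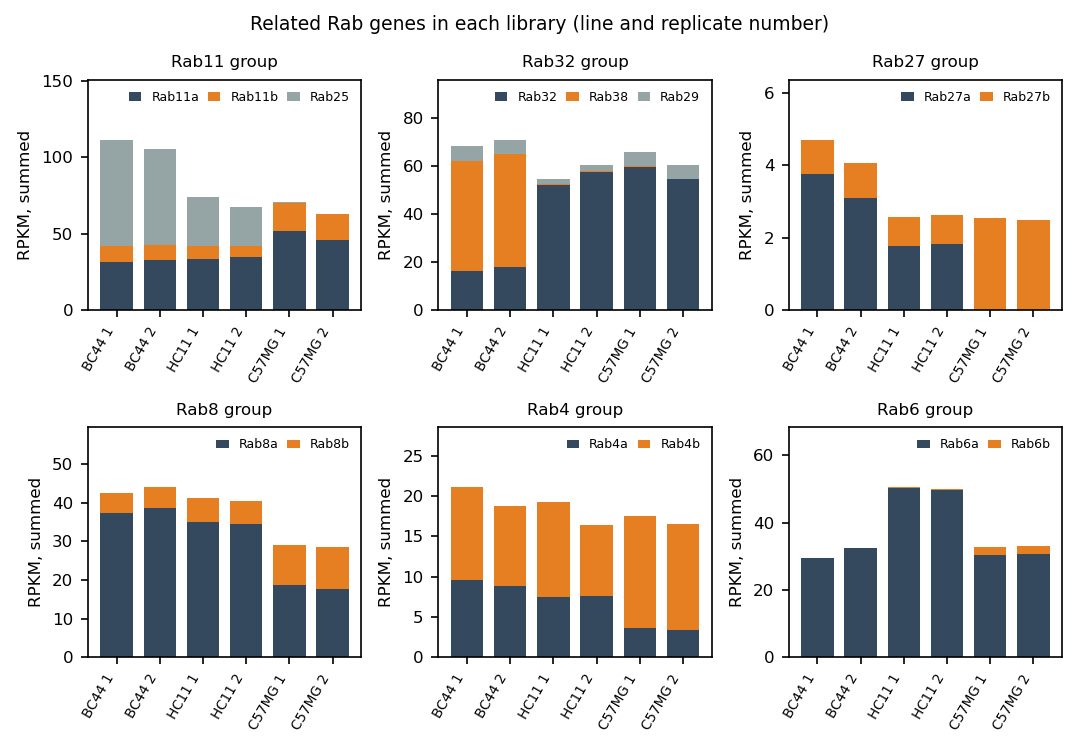
Stacked bars of RPKM in each of the 6 libraries for the Rab11, Rab32, Rab27, Rab8, Rab4 and Rab6 groups, each bar starting at 0. The Rab11 bars of BC44 are mostly Rab25 (mean share 61.2%) and those of C57MG mostly Rab11a (73.4%), and the Rab32 bars are mostly Rab38 in BC44 (66.7%) and Rab32 in the other lines.

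By position, Rab4a, Rab8a, Rab3a and Rab20 lie on chromosome 8, whose 598 other tested genes had a median log2 difference of 0.64 for BC44 over C57MG and 0.68 for HC11 over C57MG. The differences of Rab4a (1.18 and 0.93) and Rab8a (1.02 and 0.89) had the same sign as that median. Rab3a lay near 0 for BC44 against C57MG (0.07) and at 0.39 for HC11 against C57MG, and Rab20 had the opposite sign for BC44 (-0.46) and the same for HC11 (0.96). Rab43, at -0.65 and -0.54, ran against the medians of 0.32 and 0.42 on chromosome 6. Rab7, on the same chromosome, lay at 0.07 for BC44 against C57MG and at 0.41, near the median, for HC11 against C57MG. Rab35, at 0.48 and 0.51, lies on chromosome 5, where the median of 682 other genes was 0.55 and 0.50. Rab28, on the same chromosome, lay below that median at 0.34 and 0.24. Rab2b, at -0.18 and -0.40, lies on chromosome 14, where the medians were -0.56 and -0.27. The part of these chromosome-wide shifts in the values of Rab4a, Rab8a, Rab3a, Rab20, Rab43, Rab7, Rab35, Rab28 and Rab2b was not tested. For Rab25, Rab15 and Rab38 the medians of their chromosomes in the contrast of BC44 with C57MG were -0.22, 0.03 and 0.09.

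The genes that act on Rab proteins differed among the lines about as often as other genes. Of 117 listed partners 106 were in the table and 104 were tested. In BC44 against HC11 25 were higher in BC44 and 28 lower (51.0%, beside 47.7% of all genes). Against C57MG 42 were higher and 36 lower in BC44 (75.0%, beside 71.7%), and 42 were higher and 37 lower in HC11 (76.0%, beside 70.5%). Without BC44 replicate 1 the BC44 and HC11 counts became 16 and 18, and without BC44 replicate 2 the 25 higher became 16. With only genes of a mean of at least 5 RPKM tested, the 42 higher became 25 in BC44 and 26 in HC11.

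Of 8 genes of prenylation and recycling, 2 were higher and 2 lower in BC44 than in HC11, 3 and 2 in BC44 than in C57MG, and 2 and 2 in HC11 than in C57MG. Of the 8, 4, 5 and 4 were thus called, beside 47.7%, 71.7% and 70.5% of all genes. Rabggta, the alpha subunit of Rab geranylgeranyl transferase, stood at 4.94 and 5.38 RPKM in BC44, 13.0 and 12.6 RPKM in HC11, and 4.40 and 3.06 RPKM in C57MG. HC11 was the high line for Rabggta, and the log2 difference was 1.56 over C57MG (SE 0.14, limma adjusted p = 4.96e-05) and -1.16 for BC44 against HC11 (SE 0.14, limma adjusted p = 0.000558). Its beta subunit Rabggtb was lowest in C57MG at 39.5 and 39.2 RPKM, against 65.2 and 64.9 in BC44, a log2 difference of 0.71 (limma adjusted p = 8.85e-05). Chml, an escort protein for newly made Rabs, was highest in BC44, with 0.59 over C57MG (limma adjusted p = 0.000855) and 0.42 over HC11 (limma adjusted p = 0.00928), the latter lost without BC44 replicate 2 (adjusted p = 0.0614).

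Of 29 exchange factors, 8 were higher and 5 lower in BC44 than in HC11, 11 and 9 in BC44 than in C57MG, and 11 and 10 in HC11 than in C57MG. Their called shares were 44.8%, 69.0% and 72.4%, beside 47.7%, 71.7% and 70.5% of all genes. Dennd2c stood at 8.15 and 9.11 RPKM in BC44, 2.17 and 2.88 RPKM in HC11, and 0.137 and 0.038 RPKM in C57MG. This is the order of Rab25 and Rab15, and the log2 difference was 3.15 for BC44 over C57MG (SE 0.13, limma adjusted p = 6.84e-07). Dennd5a, an exchange factor for Rab39, had the opposite order, with 3.85 and 3.55 RPKM in BC44, 10.9 and 10.4 RPKM in HC11, and 16.8 and 18.2 RPKM in C57MG. The log2 difference of BC44 from C57MG was -1.97 (SE 0.10, limma adjusted p = 1.48e-06). Rab3il1, which activates Rab8 and binds Rab3a, stood at 2.63 and 2.38 RPKM in C57MG and under 0.3 RPKM in all other libraries, with a difference of -1.68 for HC11 against C57MG (SE 0.10, limma adjusted p = 4.09e-06). It entered the test through its C57MG libraries alone.

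Of 33 GTPase-activating proteins, 4 were higher and 11 lower in BC44 than in HC11, 14 and 15 in BC44 than in C57MG, and 12 and 14 in HC11 than in C57MG. In all 45.5%, 87.9% and 78.8% of them were called, beside 47.7%, 71.7% and 70.5% of all genes. Tbc1d9 stood at 10.1 and 10.5 RPKM in BC44, 7.76 and 10.5 RPKM in HC11, and 0.103 and 0 RPKM in C57MG. Tbc1d2, whose protein Armus acts on Rab7, stood at 6.32 and 6.31 RPKM in BC44, 8.07 and 12.04 RPKM in HC11, and 0.051 and 0 RPKM in C57MG. Both were near 0 in C57MG alone, by log2 differences of 3.43 and 2.83 for BC44 (limma adjusted p = 7.28e-07 and 3.97e-06) and 3.26 and 3.41 for HC11 (limma adjusted p = 1.11e-06 and 1.82e-06). Tbc1d30 was high in BC44 at 3.88 and 4.19 RPKM, against 0.615 and 0.478 in HC11 and 0.039 and 0.011 in C57MG. It entered the test through its BC44 libraries alone. Tbc1d16 was high in HC11 at 8.46 and 4.56 RPKM, against 1.85 and 1.61 in BC44 and 0.023 and 0.018 in C57MG. Their differences between BC44 and HC11 were 1.70 (limma adjusted p = 1.34e-05) and -1.41 (limma adjusted p = 0.00179).

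Of 34 effectors, 11 were higher and 10 lower in BC44 than in HC11, 14 and 10 in BC44 than in C57MG, and 17 and 11 in HC11 than in C57MG. Effectors were thus called in 61.8%, 70.6% and 82.4% of cases, beside 47.7%, 71.7% and 70.5% of all genes. Rab11fip1, an effector of Rab11 and Rab25, stood at 4.37 and 3.96 RPKM in BC44, 6.46 and 9.74 RPKM in HC11, and 0.056 and 0 RPKM in C57MG. Myo5b, the motor that Rab11 and Rab25 recruit, stood at 2.64 and 1.70 RPKM in BC44, 11.2 and 8.36 RPKM in HC11, and 0.023 and 0 RPKM in C57MG. Both were near 0 where Rab25 was near 0, but were highest in HC11, whereas Rab25 was highest in BC44. The other Rab11fip genes of the list did not all share this. In C57MG Rab11fip4 was near 0 too, at 0.022 and 0 RPKM. Rab11fip2 stood there at 2.83 and 2.72 RPKM, Rab11fip3 at 9.53 and 9.52 RPKM and Rab11fip5 at 18.4 and 16.7 RPKM. The log2 difference of HC11 over C57MG was 3.40 for Myo5b (SE 0.18, limma adjusted p = 2.53e-06), and that of BC44 over C57MG was 2.33 for Rab11fip1 (SE 0.17, limma adjusted p = 1.19e-05).

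Among effectors known for Rab27, Sytl1 and Unc13d were named by the size of their change. Sytl1 stood at 8.66 and 6.56 RPKM in BC44, 2.10 and 0.859 RPKM in HC11, and 0.176 and 0.155 RPKM in C57MG. Unc13d, whose protein Munc13-4 primes granules, stood at 5.01 and 4.74 RPKM in BC44, 23.1 and 19.7 RPKM in HC11, and 0.993 and 1.012 RPKM in C57MG. BC44 was thus the high line for Sytl1, by 2.87 over C57MG (SE 0.23, limma adjusted p = 2.07e-05), and HC11 for Unc13d, with log2 differences of 3.48 over C57MG (SE 0.11, limma adjusted p = 3.30e-07) and -1.92 for BC44 against HC11 (SE 0.11, limma adjusted p = 1.39e-05). Sytl2, another synaptotagmin-like effector of Rab27, was chosen after its values were seen and stood at 4.18 and 3.06 RPKM in C57MG and under 0.2 RPKM in the other libraries. Rph3al and Exph5, 2 more that were chosen in the same way, were higher outside C57MG. Rph3al had 0.044 and 0 RPKM in C57MG, against 3.12 and 2.84 RPKM in BC44 and 2.24 and 2.49 RPKM in HC11. Exph5, which was under the level needed for the test, was at most 0.926 RPKM in a BC44 library and 0.005 RPKM in a C57MG library. Sytl2 was thus the exception among these in being highest in C57MG. Micall2, an effector of Rab13, was highest in HC11 at 26.2 and 26.7 RPKM, against 4.52 and 2.72 in BC44 and 9.53 and 9.16 in C57MG. Its difference of -2.60 between BC44 and HC11 (SE 0.17, limma adjusted p = 2.62e-05) stood beside a Rab13 difference that was not called (limma adjusted p = 0.514).

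**Figure D4:**
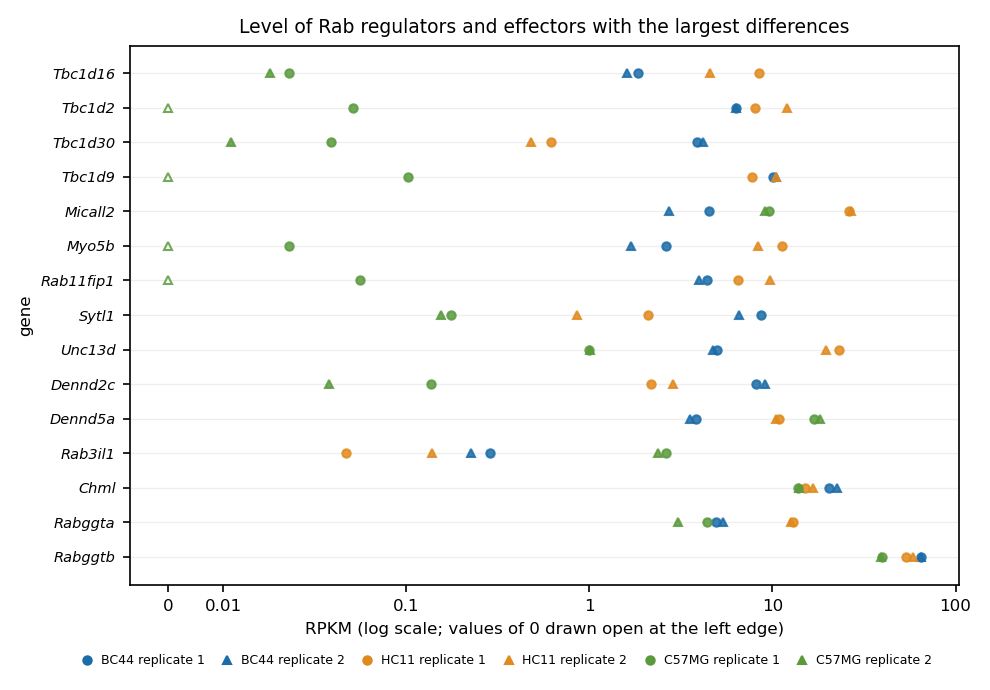
RPKM of the named partner genes of Rab proteins in each of the 6 libraries on a logarithmic axis. From top to bottom, without dividers, come GTPase-activating proteins, effectors, exchange factors, and genes of prenylation and recycling. Tbc1d9, Tbc1d2, Rab11fip1 and Myo5b lie near or at 0 in both C57MG libraries and above 1 RPKM in the others.

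Some values carry limits of counting. Of the 46 Rab genes, 27 share no stretch of 50 bases with a transcript of another gene, and 39 share less than 5% of their own. Those that share more are Rab43 (74.5%, with Gm45140), Rab4b (58.1%, and 56% with Gm21983 alone), Rab7 (11.2%), Rab5b (9.80%), Rab11b (9.47%), Rab9 (6.20%) and Rab8b (5.37%). Rab4b and Rab11b share some stretches with each other. The values of all the genes listed here are uncertain to the extent that reads were split or dropped.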

How the data were processed

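The authors deposited 1 table of RPKM values for 11417 genes and 6 libraries of directional poly(A) RNA-seq. The submitters' processing notes name STAR and mm9; the read counter, its gene lengths and its use of strand are not given in the sources used here, so overlapping genes are uncertain. All 6 columns were used. Rab genes were selected by symbol. The linear model, limma 3.58.1 in R 4.3.3, took log2(RPKM + 1) (line as the only factor, eBayes with trend, two-sided) for the 10759 genes with at least 1 RPKM in at least 2 libraries, with Benjamini-Hochberg adjustment in each of 3 contrasts at 0.05. Exact permutation of 2 against 2 libraries has a smallest p of 0.333 and was not used. Depth was estimated from the spacing of low values with GENCODE M21 exon lengths (74.7% to 79.6% of the low values used lay within 0.15 of a whole read, against 30% by chance), so read numbers and floors are estimates and cover counting error only. On simulated data with 200 changed genes among 10759, 177 were recovered of 186 calls for BC44 against HC11, and 180 of 190 for BC44 against C57MG. The changed genes all had a mean of at least 5 RPKM, and their median recovered log2 difference was 1.5 and 1.48 in the 2 contrasts. Recovery of smaller changes, or of genes at lower levels, was not tested. Rab members, partner lists, classes and tests were chosen with earlier results of these data known. Values in every library are given for the 3 Rab genes with the largest non-overlapping called change per contrast and direction, line-restricted genes, the 5 highest and the 5 least variable, and their relatives; others were added after their values were seen. Per class, the 2 partners with the largest called change per contrast are named, except 1 that is not reported here. Alternatives were a pseudocount of 0.1, no filter, a mean of at least 5 RPKM, quantile and median-ratio scaling, only the 4 libraries compared, no trend, the replicate number as block, and each library left out in turn. Python 3.11.15 with pandas 2.3.3, numpy 2.4.6 and matplotlib 3.10.9 did the rest.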

Additional observations from a re-analysis of the deposited data

How the results depend on the processing

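Of the 85 calls of Rab genes in the 3 contrasts, 59 were kept under every one of 14 alternatives that could be run for the gene, 26 were lost under at least 1, and none turned direction. Some could not be run. Rab38 fell below the filter without either BC44 library, and Rab6b and Rab27b without either C57MG library. Their calls were thus never tried with a library of their highest line left out. The filter on a mean of at least 5 RPKM tried 66 of the 85 calls. The counts that moved by more than 1.5 times were those of Rab genes higher in BC44 than in HC11 (12, and 7 to 15 with a library left out), of Rab genes lower in BC44 than in C57MG (19, and 11 to 21), and of partners higher and lower in BC44 than in HC11 (25 and 28, and 16 to 25 and 18 to 24). Partners higher than in C57MG numbered 42 in BC44 and 42 in HC11, and with a mean of at least 5 RPKM 25 and 26. A line left with 1 library is assumed to vary like the others. With the replicate number as a block, the Rab calls numbered 22 in place of 19 for BC44 and HC11, 33 in place of 30 for BC44 and C57MG, and 36 in both fits for HC11 and C57MG, and Rab40c in BC44 against C57MG was the only Rab call lost (adjusted p = 0.0502). The labels share only replicate numbers, and the deviations of same-numbered libraries correlated across genes at 0.354, -0.0387 and 0.0379. With 2 libraries per line, differences near the spread of a line, and genes under about 0.1 RPKM, were not resolved at this depth.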
